A study of Mus musculus with 6 samples.

Results

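The heavy chain variable (Ighv) segments are the V exons of the immunoglobulin heavy chain locus. They were taken as every symbol that starts with Ighv and a number in the deposited gene tables, and were grouped by V family, the number before the hyphen. This gave 143 segments of 30733 symbols, in 15 families. RNA sequencing was done on bone marrow cells that the labels call haematopoietic stem cells, from wild-type mice given 5 Gy of total body irradiation. Cells sorted as MHCII-hi, with a high surface level of MHC class II, were compared with cells sorted as MHCII-lo, with 3 libraries in each group. Genotype and irradiation were the same in both groups. The strain, the age of the mice, the time after irradiation and the sort gates are not stated in the labels. Reads of a strain whose V segments differ from the reference would be assigned differently, so each segment's level and share holds only as far as the mice carry the reference segments. Nothing in the labels says whether the 3 libraries of a group came from separate mice, so the p-values speak only of the spread among these libraries, and that spread may be technical.

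A B cell assembles its heavy chain gene by joining a V segment to a D and a J segment, a reaction that the RAG recombinase starts in developing B cells. Each V segment lies behind its own promoter, and after joining it is transcribed into messenger RNA with a constant region exon such as Ighm or Igha. Antibody-secreting plasma cells, many of which live in the bone marrow, make this RNA in very large amounts. Haematopoietic stem cells are not known to carry a joined heavy chain gene.

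The locus lies on chromosome 12 of the mouse build GRCm38, and all the segments shown here are on its minus strand. The V exons of the segments on which the results turn are printed from their 3′ ends, read 5′ to 3′, from the GENCODE M21 transcripts of that build. These are reference sequences and not the joined genes of the cells. Capitals mark TGTGCAAGA, which encodes the cysteine-alanine-arginine where the variable region meets the joining site, if it lies in the last 30 bases. Where it does not, they mark TACTGTG, the embedded heptamer, a copy of a recombination signal inside the V exon. A sequence without capitals holds neither in its last 30 bases. Ighv3-6 had the highest level in both groups, Ighv11-2 and its near copy Ighv11-1 belonged to the family whose share differed by the largest factor, and Ighv1-41 was the only tested segment with a lower level in MHCII-hi.
Ighv3-6, chr12:114288152-114288445: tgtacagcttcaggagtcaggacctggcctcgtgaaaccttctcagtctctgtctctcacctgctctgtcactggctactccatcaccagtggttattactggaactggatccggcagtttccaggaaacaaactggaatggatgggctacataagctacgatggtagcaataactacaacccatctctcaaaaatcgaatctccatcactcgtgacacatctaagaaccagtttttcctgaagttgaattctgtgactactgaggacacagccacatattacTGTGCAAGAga
Ighv11-2, chr12:114048241-114048534: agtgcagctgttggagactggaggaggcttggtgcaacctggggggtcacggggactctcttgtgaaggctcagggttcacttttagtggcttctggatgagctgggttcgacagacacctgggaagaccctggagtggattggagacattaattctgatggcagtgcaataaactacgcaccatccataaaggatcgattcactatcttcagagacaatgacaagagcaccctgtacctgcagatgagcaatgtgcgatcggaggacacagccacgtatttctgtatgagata
Ighv11-1, chr12:113981879-113982172: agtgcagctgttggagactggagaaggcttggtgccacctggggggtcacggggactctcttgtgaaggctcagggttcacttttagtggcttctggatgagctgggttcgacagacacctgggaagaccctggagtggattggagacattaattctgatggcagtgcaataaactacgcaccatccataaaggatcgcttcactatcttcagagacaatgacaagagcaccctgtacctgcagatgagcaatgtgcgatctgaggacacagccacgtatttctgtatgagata
Ighv1-41, chr12:114932371-114932653: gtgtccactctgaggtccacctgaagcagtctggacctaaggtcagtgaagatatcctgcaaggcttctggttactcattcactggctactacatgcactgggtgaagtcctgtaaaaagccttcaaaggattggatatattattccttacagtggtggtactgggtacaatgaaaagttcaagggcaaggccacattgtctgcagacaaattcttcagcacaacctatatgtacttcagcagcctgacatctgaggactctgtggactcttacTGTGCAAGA

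The last 60 bases of 7 further segments show how alike highly used and unused segments are. Ighv5-17 and Ighv8-12 were among the segments with the largest rise, Ighv8-8 was high and Ighv8-11 almost silent. Ighv1-21-1 is annotated as a pseudogene, and Ighv1-62-2 and Ighv1-71 have identical V exons.
Ighv5-17, chr12:113859149-113859208: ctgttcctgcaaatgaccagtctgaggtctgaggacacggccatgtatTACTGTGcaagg
Ighv8-12, chr12:115647945-115648004: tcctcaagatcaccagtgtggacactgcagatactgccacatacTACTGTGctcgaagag
Ighv8-8, chr12:115294062-115294121: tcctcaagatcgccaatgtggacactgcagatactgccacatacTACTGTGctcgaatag
Ighv8-11, chr12:115567149-115567208: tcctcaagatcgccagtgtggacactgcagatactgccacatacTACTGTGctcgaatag
Ighv1-21-1, chr12:114736245-114736304: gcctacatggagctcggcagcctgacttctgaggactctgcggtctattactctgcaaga
Ighv1-62-2, chr12:115446409-115446468: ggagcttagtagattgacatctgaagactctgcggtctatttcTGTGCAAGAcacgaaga
Ighv1-71, chr12:115742205-115742264: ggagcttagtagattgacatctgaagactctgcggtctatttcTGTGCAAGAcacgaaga

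Heavy chain V segment RNA was abundant in the MHCII-hi libraries and scarce in the MHCII-lo libraries. Levels are in FPKM, the authors' fragment count divided by transcript length and by the depth of the library. The summed level of all 143 segments was 19383, 19282 and 19214 FPKM in MHCII-hi, library by library. In MHCII-lo it was 355, 349 and 356 FPKM. The mean was 19293 ± 85.4 (SD, n = 3) against 353 ± 4.19 (SD, n = 3), a ratio of 54.6, and the groups were far apart. V segments made up 5.04% ± 0.0153 (SD, n = 3) of all FPKM in MHCII-hi and 0.106% ± 0.00113 (SD, n = 3) in MHCII-lo. In bulk libraries, fewer cells of a type and less RNA per cell cannot be told apart.

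Nearly all segments that could be tested were higher in MHCII-hi. A segment was tested if its mean of the 6 libraries reached 1 FPKM, with limma on log2(FPKM + 1) in a fit of all 12110 genes at that level. Of the 102 segments tested, 101 were higher in MHCII-hi, against 25.5% of all genes tested, and 1 was lower, against 33.1% of all genes. In 100 of the 102 the 3 MHCII-hi values all lay above the 3 MHCII-lo values, which held for 29.0% of all genes tested. The median log2 change of the tested segments was 5.16 (quartiles 4.37 and 5.81), beside -0.04 for all genes tested. Because a segment that is silent in MHCII-lo passed the minimum only through its MHCII-hi level, these counts describe the tested segments and not the whole set. Changes on this log scale also understate those of low segments.

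The other 41 segments had means under 1 FPKM and were not tested. Ighv1-23, at a mean of 1.13 FPKM over the 6 libraries, lay just inside the minimum, and Ighv1-62, at 0.997 FPKM, just outside. Of all 143 segments, 10 were listed at 0 in all 6 libraries, and 30 more were listed at 0 in all 3 MHCII-lo libraries only. By MHCII-hi mean, 60 segments reached 100 FPKM or more, 27 lay between 10 and 100, 24 between 1 and 10, and 32 under 1. The number of segments above 0 was 128, 124 and 121 in MHCII-hi and 94, 93 and 95 in MHCII-lo.

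The order of the segments at the top was partly shared. Ighv3-6 measured 1143, 1163 and 1145 FPKM in MHCII-hi and 14.7, 15.9 and 17.0 FPKM in MHCII-lo. It ranked 1 in both groups, and its level was 72.6-fold higher there (log2 change 6.10, SE 0.05, limma adjusted p = 9.28e-10). Ighv9-3 ranked 2 in both, at 888, 904 and 876 FPKM against 15.1, 16.7 and 14.1, a 58.2-fold difference (log2 change 5.78, SE 0.06, limma adjusted p = 2.34e-09). Ighv1-26 ranked 3 in both, at 718, 666 and 697 FPKM against 16.1, 11.9 and 11.5, a 52.7-fold difference. In MHCII-hi the levels of these 3 segments did not overlap, so their order held in every library. In MHCII-lo their ranges overlapped, and the order among them was not resolved.

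Of the 10 segments highest in MHCII-hi, 5 were also among the 10 highest in MHCII-lo, namely Ighv1-26, Ighv1-82, Ighv1-9, Ighv3-6 and Ighv9-3. Among the top 20 of each group, 13 were shared. Ighv1-82, the sixth in MHCII-lo, measured 520, 525 and 524 FPKM in MHCII-hi and 10.7, 11.8 and 10.2 in MHCII-lo, a 48.0-fold difference close to that of the summed level. Ighv1-72, a segment known from the antibody response of C57BL/6 mice to nitrophenyl haptens, ranked 20 in both groups. Its levels were 331, 330 and 331 FPKM against 5.55, 5.89 and 7.39, a 52.7-fold difference.

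**Figure D1:**
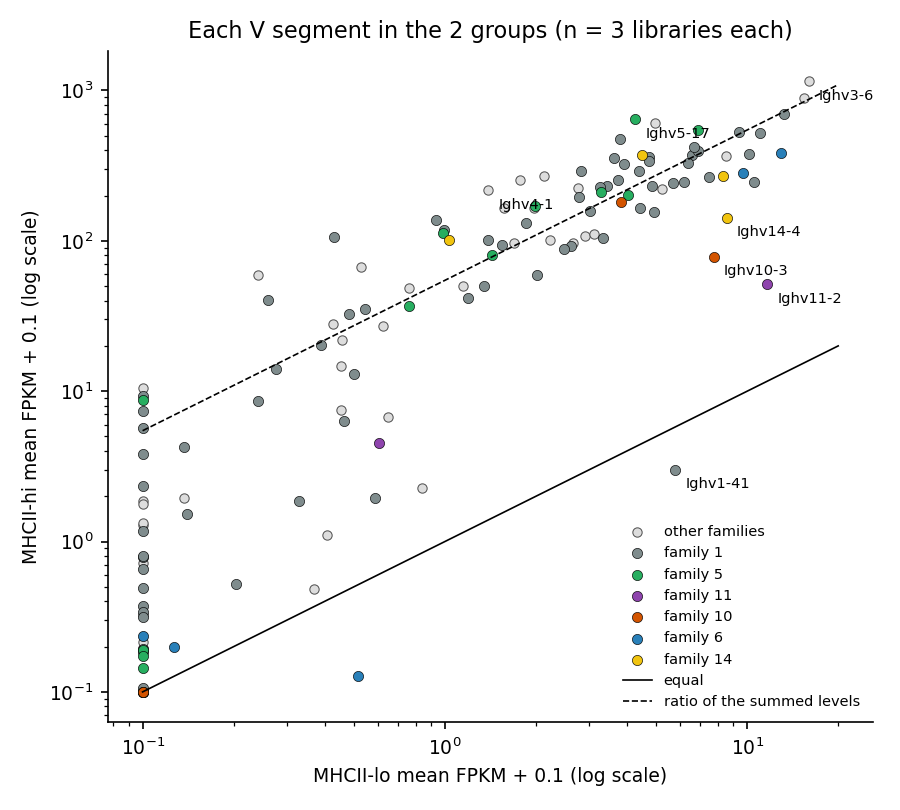
Mean FPKM + 0.1 of each of the 143 V segments in MHCII-lo (x axis, log scale) and MHCII-hi (y axis, log scale), 3 libraries each, coloured by V family. Most points with a MHCII-lo mean above 1 FPKM follow the dashed line, the 54.6-fold ratio of the summed levels, while Ighv11-2, Ighv10-3 and Ighv14-4 lie well below it and only Ighv1-41 among the tested segments lies below the line of equal levels. Points at the left edge were listed at 0 in all 3 MHCII-lo libraries.

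Segments differed in the size of their rise. Over the 68 segments with a MHCII-lo mean of at least 1 FPKM, the ratio of MHCII-hi to MHCII-lo had a median of 55.5, quartiles of 37.9 and 76.0, and a range from 0.512 to 169. In 9 segments it was over 100 and in 4 under 20. Some tested segments under that MHCII-lo level had larger ratios. Examples were Ighv2-5, with means of 59.1 and 0.14 FPKM (a ratio of 422), and Ighv1-20, with 105 and 0.33 FPKM (a ratio of 320). The precision of these ratios is set by the MHCII-lo libraries. The number of fragments behind a segment was estimated from its FPKM, its exon length and an estimated depth. It had a median of 61.5 over the 3 MHCII-lo libraries together, and was under 30 for 35 of the 102 tested segments. For Ighv2-5 it was about 5 and for Ighv1-20 about 8.

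The largest rises on the log2(FPKM + 1) scale were those of Ighv5-17, Ighv8-12, Ighv1-59, Ighv4-1, Ighv3-8 and Ighv9-1. Ighv5-17 measured 660, 640 and 643 FPKM in MHCII-hi and 4.85, 3.11 and 4.52 in MHCII-lo. It was the fourth segment of MHCII-hi but ranked 33 in MHCII-lo, a 156-fold difference (log2 change 6.99, SE 0.12, limma adjusted p = 4.02e-08). Ighv8-12 measured 612, 593 and 607 FPKM against 5.61, 4.66 and 4.28 and ranked 5 against 25, a 125-fold difference (log2 change 6.70, SE 0.08, limma adjusted p = 5.29e-09). The groups of both segments were widely separated, and their share of V segment RNA was also higher in every MHCII-hi library than in any MHCII-lo library.

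The other 4 ran from 128-fold to 169-fold. Ighv1-59 had means of 474 and 3.70 FPKM, a ratio of 128, Ighv3-8 of 252 and 1.67, a ratio of 151, and Ighv9-1 of 269 and 2.02, a ratio of 133. Ighv4-1, the only functional member of family 4, measured 223, 216 and 216 FPKM against 0.65, 2.46 and 0.76, a ratio of 169 (log2 change 6.67, SE 0.27). Its MHCII-lo replicate 2 was over 3 times as high as the other MHCII-lo libraries, so the ratio is loosely known. Ighv5-16, the sixth segment of MHCII-hi, rose 80.3-fold from a mean of 6.78 to 544 FPKM.

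The segments with the smallest changes were Ighv1-41, Ighv3-3, Ighv1-73, Ighv1-23, Ighv11-1 and Ighv11-2. Most of these were low in both groups, and Ighv11-2 was the exception. Ighv11-2 measured 55.2, 52.3 and 46.5 FPKM in MHCII-hi and 11.1, 11.1 and 12.4 in MHCII-lo. It was 4.45-fold higher in MHCII-hi, which on the log2 scale is 2.06 (SE 0.07, limma adjusted p = 1.22e-06), and the groups did not overlap. It ranked 71 in MHCII-hi but 5 in MHCII-lo. Its share of all V segment RNA was 0.266% ± 0.0219 (SD, n = 3) in MHCII-hi and 3.26% ± 0.197 (SD, n = 3) in MHCII-lo, 12.3 times as large in MHCII-lo. About 379 fragments over the 3 MHCII-lo libraries lie behind this value.

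Ighv11-1, whose V exon printed above is 98.7% identical to that of Ighv11-2 over 307 bases, was far lower. It measured 4.85, 4.83 and 3.57 FPKM against 0, 0.49 and 1.03 in MHCII-lo (log2 change 1.90, SE 0.25, limma adjusted p = 7.50e-04). Reads from so similar a pair can be assigned to either copy, so the level of Ighv11-1 is uncertain, but Ighv11-2 was over 10 times as high in both groups.

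Ighv1-41, annotated as a pseudogene, was the only tested segment that fell. It measured 2.56, 3.18 and 2.97 FPKM in MHCII-hi and 6.99, 4.19 and 5.84 in MHCII-lo, and every MHCII-lo library lay above every MHCII-hi library. The MHCII-hi level was 0.512 times the MHCII-lo level (log2 change -0.75, SE 0.16, limma adjusted p = 0.00561). Among the segments it ranked 99 in MHCII-hi and 22 in MHCII-lo. Its V exon is 94.98% identical over 279 bases to that of Ighv1-29, another pseudogene, which was listed at 0 in all 6 libraries.

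Ighv3-3 measured 2.01, 1.97 and 2.57 FPKM against 0.44, 1.0 and 0.78, a 2.95-fold difference (log2 change 0.88, SE 0.14, limma adjusted p = 0.00184). Ighv1-23 measured 2.52, 3.52 and 0.73 FPKM and was listed at 0 in all MHCII-lo libraries. The pseudogene Ighv1-73, at 2.38, 2.35 and 0.85 FPKM against 1.01, 0.12 and 0.33, passed the test narrowly, and its groups overlapped (log2 change 0.94, SE 0.30, limma adjusted p = 0.0345). The adjusted p of Ighv1-73 rose to 0.101 without MHCII-lo replicate 2 and to 0.088 without MHCII-lo replicate 3.

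**Figure D2:**
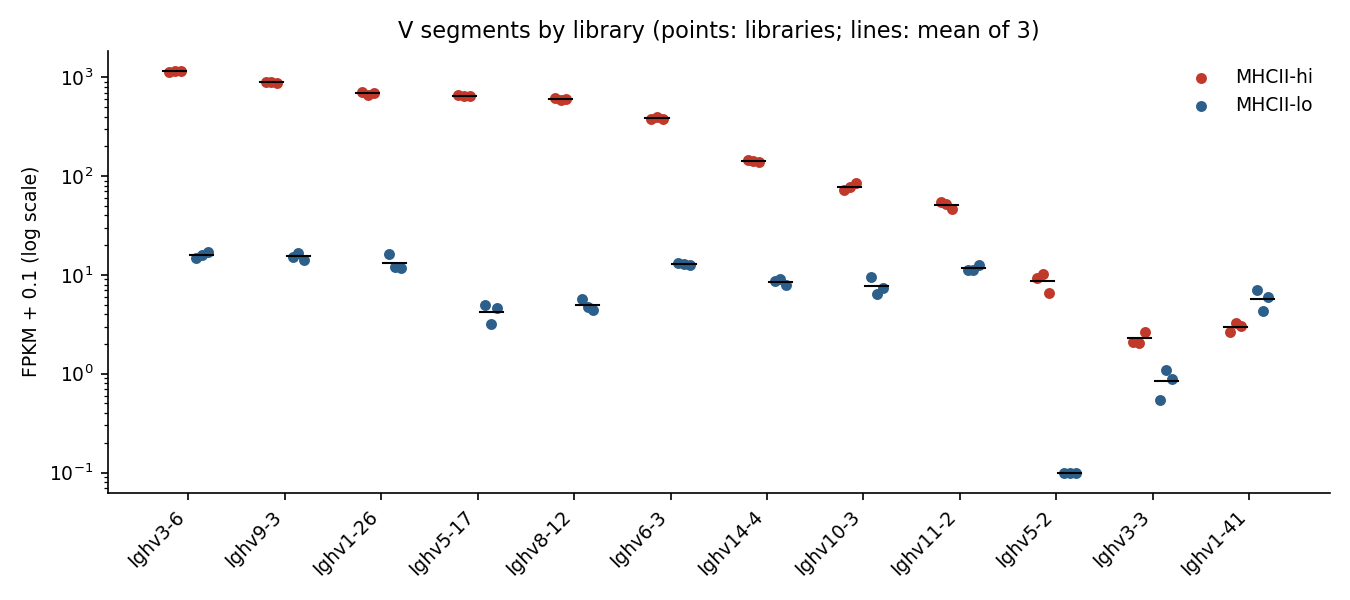
FPKM + 0.1 (log scale) of 12 V segments in each library, with MHCII-hi in red, MHCII-lo in blue and a line at the mean of 3. The gap between the groups is 72.6-fold for Ighv3-6 and 4.45-fold for Ighv11-2, is turned round for Ighv1-41, and Ighv5-2 was listed at 0 in all MHCII-lo libraries.

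Single V segments were used in nearly the same breadth in both groups, but the shares of most V families differed. Shares of the summed V segment level are free of the scaling between libraries. The effective number of segments, the inverse of the summed squared shares, was 48.2 ± 0.0602 (SD, n = 3) in MHCII-hi and 48.0 ± 1.09 (SD, n = 3) in MHCII-lo, and the ranges overlapped. The 10 highest segments took 33.6% ± 0.142 (SD, n = 3) of the MHCII-hi level and 33.7% ± 0.886 (SD, n = 3) of the MHCII-lo level, also overlapping. Among the 102 tested segments, the share was higher in every MHCII-hi library for 36, lower for 24 and overlapping for 42. For all genes tested only FPKM levels, not shares, were compared in this way. Their groups did not overlap in 29.0%, higher in MHCII-hi, and in 36.8%, lower. Absence of overlap was therefore common in these libraries, and the counts are a description. Some of the 36 segments with a higher share were listed at 0 in all MHCII-lo libraries and passed the minimum only through their MHCII-hi level. Their share could only be higher in MHCII-hi, so 36 against 24 is not an even comparison of the directions.

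Family 1, the largest, has 74 of the 143 segments, 52 of them annotated as functional. It took 52.0% ± 0.386 (SD, n = 3) of V segment RNA in MHCII-hi and 52.0% ± 0.997 (SD, n = 3) in MHCII-lo, with overlapping ranges. Of its 55 tested segments 54 were higher in MHCII-hi, and Ighv1-41 was lower.

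Families 5, 3, 2, 8, 9, 4 and 13 took a larger share in every MHCII-hi library than in any MHCII-lo library. Family 5, many of whose 13 segments lie near the D segments, had shares of 10.4% ± 0.0703 (SD, n = 3) and 6.46% ± 0.171 (SD, n = 3), and all 9 of its tested segments were higher in MHCII-hi. Its summed level was 88.2-fold higher. Family 3, led by Ighv3-6, had 7.90% ± 0.101 against 5.83% ± 0.415 (SD, n = 3). In family 8 most members were nearly silent, and 3 of its 12 segments were tested, all higher in MHCII-hi. Led by Ighv8-12 and Ighv8-8, it had 5.20% ± 0.0148 against 4.0% ± 0.685 (SD, n = 3). Family 2, led by Ighv2-2 at a mean of 225 FPKM in MHCII-hi, had 4.13% against 3.09%, and family 9 had 7.03% against 6.23%. Families 4 and 13 were minor in both groups. With 1 functional segment each, they had 1.14% against 0.367% and 0.346% against 0.121%. The only member of family 13, Ighv13-2, rose 157-fold from a mean of 0.427 to 66.8 FPKM, on about 11 fragments in MHCII-lo.

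Families 11, 10, 6, 14 and 7 took a smaller share in every MHCII-hi library than in any MHCII-lo library, although all their tested segments were higher in MHCII-hi. Family 11 had the largest ratio of shares among the 15 families, 0.289% ± 0.0255 (SD, n = 3) against 3.41% ± 0.337 (SD, n = 3), with its share 11.8 times as large in MHCII-lo. Family 10 had 1.34% ± 0.0495 against 3.21% ± 0.317 (SD, n = 3). Within it the members differed. Ighv10-3 measured 72.0, 77.7 and 85.3 FPKM against 9.35, 6.36 and 7.23, a 10.2-fold difference, while Ighv10-1 rose 48.6-fold, from a mean of 3.72 to 181 FPKM.

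Family 6 had 3.45% ± 0.0941 against 6.47% ± 0.225 (SD, n = 3), and nearly all of it came from Ighv6-3 and Ighv6-6. Ighv6-3 measured 379, 395 and 381 FPKM against 13.2, 12.7 and 12.5 (30.02-fold, log2 change 4.80, SE 0.03, limma adjusted p = 5.12e-10). It ranked 12 in MHCII-hi and 4 in MHCII-lo. Ighv6-6 had a similar ratio of 29.3. The family's Ighv6-4, Ighv6-5 and Ighv6-7, annotated as functional, had MHCII-hi means under 0.2 FPKM. Of these only Ighv6-4 had a higher mean in MHCII-lo, at 0.77, 0 and 0.48 FPKM against 0.08, 0 and 0, values too low to be tested.

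Family 14 had 4.59% ± 0.154 against 6.22% ± 0.136 (SD, n = 3). Its Ighv14-4 measured 144, 143 and 139 FPKM against 8.54, 9.0 and 7.82, a 16.8-fold difference, while Ighv14-2 rose 84.6-fold from a mean of 4.38 to 371 FPKM. Family 7 had 1.78% against 2.30%. It holds Ighv7-3, whose means were 223 and 5.11 FPKM, and Ighv7-1, known from antibodies to phosphorylcholine, which rose 36.6-fold from a mean of 3.01 to 110 FPKM. Families 12 and 15 had overlapping shares. Their leading segments were Ighv12-3, which rose from a mean of 0.523 to 26.9 FPKM, and Ighv15-2, which rose from 0.663 to 48.8 FPKM.

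**Figure D3:**
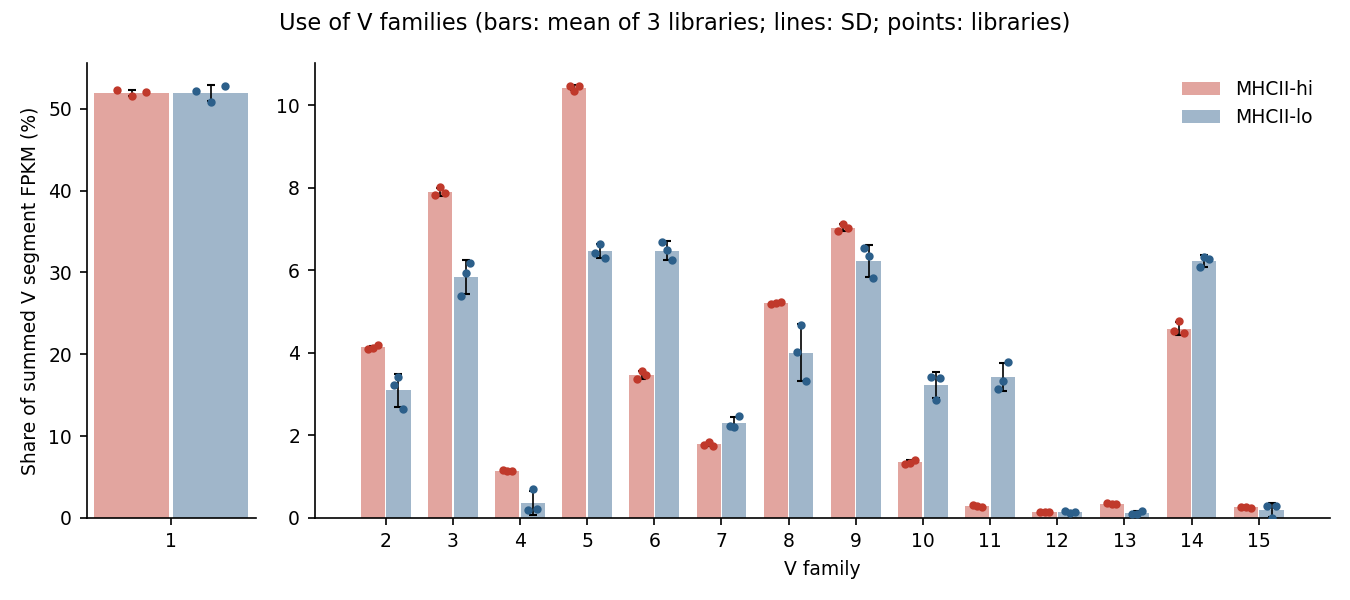
Share of the summed V segment FPKM taken by each V family, with family 1 on its own scale at the left. Bars are means of 3 libraries, lines the SD and points the libraries. Family 1 is equal in the groups at 52.0%, family 5 is higher in MHCII-hi (10.4% against 6.46%), and families 6, 10, 11 and 14 are higher in MHCII-lo.

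The relative use of segments was closely alike within a group and less so between groups. Over the 110 functional segments, Spearman's rho between pairs of MHCII-hi libraries was 0.997 to 0.998, and between pairs of MHCII-lo libraries 0.921 to 0.934. Between a MHCII-hi and a MHCII-lo library it was 0.853 to 0.869 over the 9 pairs. These correlations across segments are a description. The segments of a library share its depth, and the MHCII-lo libraries have far fewer V segment fragments, about 2941 to 3242 a library against 144965 to 231115.

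Use also differed modestly along the locus. Its 2427 kb of listed segments were cut into 5 windows of equal length, counted from the D-proximal end. The first window, from Ighv5-1 to Ighv11-2, held 19.5% ± 0.0727 (SD, n = 3) of V segment RNA in MHCII-hi and 16.1% ± 0.748 (SD, n = 3) in MHCII-lo, and the groups did not overlap. The second, which holds Ighv3-6, Ighv9-3, Ighv6-3, Ighv6-6, Ighv10-1, Ighv10-3 and Ighv14-4, had 24.6% ± 0.275 against 29.4% ± 0.689 (SD, n = 3). The third had 16.9% against 18.1%, the fourth had 17.6% against 16.5% with overlap, and the most distal 21.3% ± 0.225 against 19.8% ± 0.802 (SD, n = 3). Highly used segments were found in every window and in both groups.

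The most D-proximal functional segment, Ighv5-2, was little used. It lies 5.58 kb from the end of the listed segments and is known as a segment that is often joined in early B cell progenitors. It measured 9.17, 10.04 and 6.50 FPKM in MHCII-hi and was listed at 0 in all 3 MHCII-lo libraries (log2 change 3.24, SE 0.14, limma adjusted p = 3.77e-06). Ighv2-2, at 15.3 kb, measured 219, 234 and 222 FPKM against 2.97, 2.87 and 2.15.

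**Figure D4:**
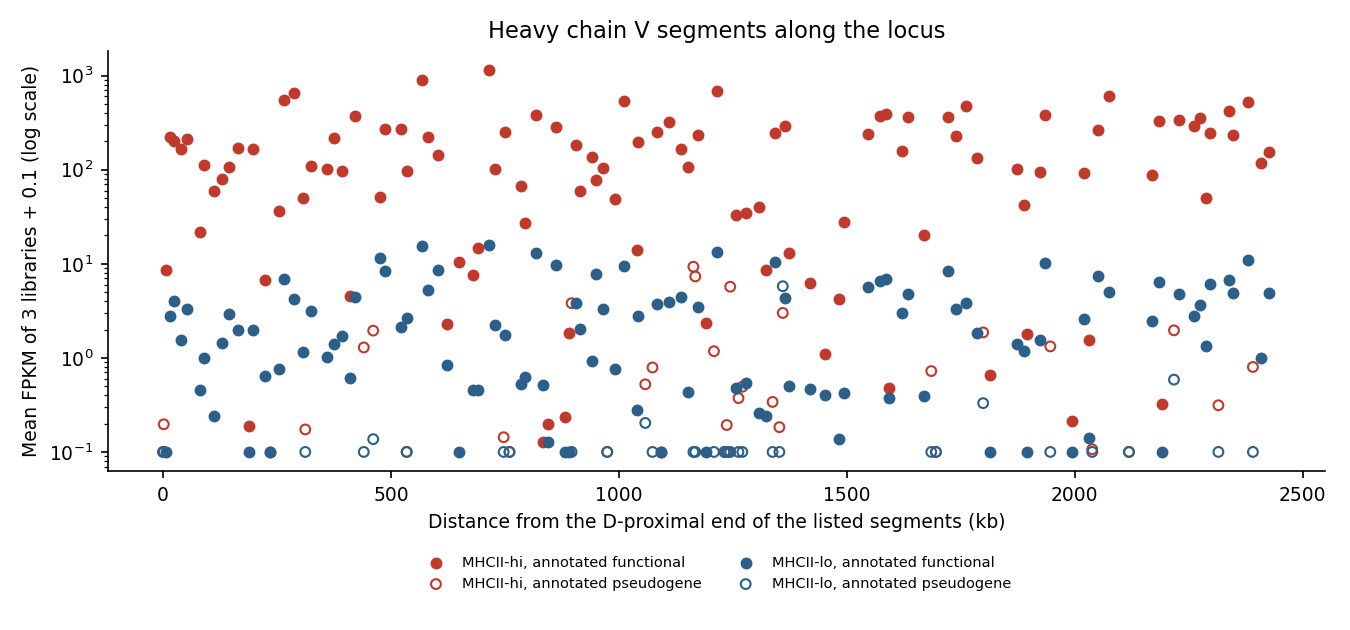
Mean FPKM + 0.1 (log scale) of each V segment by its distance from the D-proximal end of the listed segments (kb), in MHCII-hi (red) and MHCII-lo (blue). Filled points are annotated as functional and open points as pseudogenes. High and low segments alternate along the whole 2427 kb, and no pseudogene reaches 10 FPKM in MHCII-hi.

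Segments annotated as functional were mostly higher than pseudogenes, but the ranges overlapped. GENCODE M21 types 110 of the 143 segments as V genes, taken as functional here, and 33 as pseudogenes. The functional segments had a median MHCII-hi mean of 106 FPKM and a highest of 1150 FPKM, and 87 of them reached 10 FPKM. The pseudogenes had a median of 0.273 FPKM and a highest of 9.20 FPKM, with 22 of the 33 under 1 FPKM. All 96 tested functional segments were higher in MHCII-hi, as were 5 of the 6 tested pseudogenes, beside 25.5% of all genes tested. Apart from Ighv1-73, whose groups overlapped, the pseudogenes called higher were listed at 0 in all MHCII-lo libraries. They passed the minimum only through their MHCII-hi level, so the pseudogene count cannot show a direction for pseudogenes as a set. The highest pseudogene, Ighv1-21-1, measured 6.93, 10.8 and 9.92 FPKM in MHCII-hi and was listed at 0 in all MHCII-lo libraries. Pseudogenes took 0.215% ± 0.0233 (SD, n = 3) of V segment RNA in MHCII-hi and 1.84% ± 0.592 (SD, n = 3) in MHCII-lo, where Ighv1-41 alone took 1.60% ± 0.384 (SD, n = 3).

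Of the functional segments, 10 had a MHCII-hi mean under 1 FPKM. These were Ighv5-12-4, Ighv2-7, Ighv6-4, Ighv6-5, Ighv6-7, Ighv1-16, Ighv8-6, Ighv1-62-1, Ighv8-11 and Ighv8-13, of which Ighv2-7 and Ighv1-16 were listed at 0 in all 6 libraries. Ighv8-11 measured 0.34, 0 and 0 FPKM in MHCII-hi and 0 in all MHCII-lo libraries. Its V exon is 96.15% identical over 312 bases to that of Ighv8-8, which measured 363, 371 and 361 FPKM against 7.85, 10.2 and 7.04. A near copy of a highly used segment was thus listed at or near 0.

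The V exon ends were compared with the levels. A stretch without stop codons over the last 270 bases, in any reading frame, was found in 110 of 110 functional segments and in 6 of 33 pseudogenes. The annotation may itself rest on the reading frame, so this count is no test of it. The letters TGTGCAAGA were searched on the sense strand in the last 30 bases of the V exon. They were present in 39 of the 60 functional segments with at least 100 FPKM in MHCII-hi, in 15 of the 27 with 10 to 100 FPKM and in 7 of the 23 under 10 FPKM. Among pseudogenes 17 of 33 held them. TGTGCAAGA was absent from every segment of families 6 and 8, including the high Ighv6-3 and Ighv8-12 and the low Ighv6-4 and Ighv8-11. The counts by level were not separated by family, so they cannot tell level from family. TACTGTG, which can share its last 4 letters with the first motif, was present in 34 of 60, 21 of 27 and 13 of 23 functional segments, and in 16 of 33 pseudogenes. In the last 30 bases of all other transcripts TACTGTG was found in 0.233% and TGTGCAAGA in 0.00708%. For kappa V segment transcripts the shares were 4.62% and 0%. A match describes the letters of this window only.

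Near copies limit what a single segment's level can show. The nearest other segment had a median identity of 95.0%, and 37 of the 143 shared at least 1 exact stretch of 100 bases with another. Ighv1-62-2 and Ighv1-71, whose identical ends are printed above, share the full 313 bases. Ighv1-62-2 was listed at 94.0, 102 and 106 FPKM against 1.10, 1.26 and 1.51, and Ighv1-71 at 90.6, 85.5 and 89.9 FPKM against 2.69, 2.13 and 2.29. How the authors' counting divided reads between such copies is not given in the sources used here, so these are uncertain as levels of either copy.

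The constant regions, to which V segments are joined in messenger RNA, were compared as shares of their own sum. The heavy chain constant genes summed to 8882 ± 73.0 FPKM in MHCII-hi and 210 ± 0.224 FPKM in MHCII-lo (SD, n = 3). All 7 tested genes were higher in MHCII-hi, beside 25.5% of all genes tested. Ighm, the constant region of IgM, measured 288, 280 and 277 FPKM against 69.5, 61.6 and 65.5. It was 4.30-fold higher in MHCII-hi, which on the log2 scale is 2.09 (SE 0.04, limma adjusted p = 8.62e-08), which is near the 4.45-fold of Ighv11-2. Its share of constant region RNA was 3.17% ± 0.0575 (SD, n = 3) in MHCII-hi and 31.2% ± 1.90 (SD, n = 3) in MHCII-lo.

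The switched isotypes differed in their ratios. Igha, of IgA, had means of 2306 and 21.8 FPKM, a ratio of 106, and Ighg1, of IgG1, 1617 and 19.1 FPKM, a ratio of 84.5. Secreted IgA and IgG are products of plasma cells that have switched class. Igha had a share of 26.0% ± 0.323 against 10.4% ± 0.883 (SD, n = 3). Ighg2c was the largest in both groups, at 32.0% ± 0.183 against 34.4% ± 0.808 (SD, n = 3). Ighg2b rose 62.8-fold and Ighg2c 39.4-fold. Ighg3 rose 6.13-fold, from a mean of 2.19 to 13.4 FPKM, and its share was lower in MHCII-hi, 0.151% against 1.04%. Whether the low-ratio V segments are those joined to Ighm was not tested, since a gene table does not link V and constant exons.

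Genes that act on V segments showed no common direction. Over all genes tested 25.5% were higher and 33.1% lower, and the counts of each list below stand beside these shares. Of 15 genes for V(D)J recombination 12 were tested, and 3 were higher, 6 lower and 3 not called, with a median log2 change of -0.07. Dntt, the enzyme that adds bases at the joints, rose 8.80-fold from a mean of 1.38 to 12.1 FPKM. Hmgb2, a DNA-bending partner of RAG, fell from 339 to 229 FPKM, and Xrcc5, a subunit of the Ku end-joining complex, from 6.55 to 4.46. Rag1, the recombinase itself, measured 0.76, 0.64 and 0.45 FPKM and was listed at 0 in all MHCII-lo libraries, and Rag2 had means of 0.143 and 0.03 FPKM. When each library was scaled to its sum without immunoglobulin genes, the median of all tested genes moved up by 0.148 on the log2 scale, which is larger than several changes in this list.

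The list of factors that bind the V segment octamer or heavy chain enhancers and insulators held 9 tested genes of 10, with 7 higher, 1 lower and 1 not called (median log2 change 0.17), beside 25.5% higher and 33.1% lower over all genes tested. Pou2af1, the B cell coactivator of the octamer-binding proteins, rose 52.1-fold from a mean of 0.297 to 15.5 FPKM. Ets1 rose from 8.49 to 13.6 FPKM, and Spi1 fell from 76.6 to 53.1. The octamer-binding factors Pou2f1 and Pou2f2 rose 1.70-fold and 1.38-fold.

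Markers of antibody-forming and other cells differed between the groups along with the V segments. All 14 plasma cell genes were tested, with 11 higher, 2 lower (Fkbp11 and Creld2) and 1 not called (Tnfrsf13b). Their summed level was 1616 to 1626 FPKM in MHCII-hi and 176 to 181 in MHCII-lo. Most of the MHCII-hi sum was Jchain, the joining chain of secreted IgA and IgM, with means of 1342 and 14.2 FPKM, a ratio of 94.2. Irf4, a factor needed for plasma cells, rose 35.5-fold from 0.55 to 19.5 FPKM. In MHCII-lo, where Jchain was a small part of the sum, Xbp1 had the highest mean, 64.7 FPKM against 78.4 in MHCII-hi. Mature B cell genes were low, with 4 of 13 tested and all 4 higher, and they summed to 21.6 to 24.2 FPKM against 2.4 to 3.2. Cr2, Fcmr and Ccr6 were listed at 0 in all MHCII-lo libraries. Pro-B and pre-B cell genes had 8 of 17 tested, all higher, and summed to 85.3 to 86.5 FPKM against 14.8 to 17.3. The highest MHCII-hi means in this list were those of Cd79a, at 24.3 against 0.28 FPKM, and Cd79b, at 19.4 against 7.47. Vpreb1, Vpreb2, Igll1, Ebf1, Rag1 and Rag2 had means under 1 FPKM in both groups and were not tested, though each mean was higher in MHCII-hi.

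Among non-B cell lists, T cell genes summed to 70.6 to 74.7 FPKM against 20.2 to 23.5, with all 10 tested of 12 higher. Eosinophil and basophil genes summed to 8319 to 8486 FPKM against 3245 to 3285, with 9 of 10 higher. Neutrophil genes, the most abundant of these lists, went the other way. They summed to 17131 to 17471 FPKM against 39149 to 39725, with all 12 lower. The 4 class II genes, which check the sort, were all higher, at 563 to 581 FPKM summed against 21.2 to 21.5. Of the stem cell list 6 of 12 were tested, with 4 higher, 1 lower and 1 not called, and the list summed to 58.2 to 63.5 FPKM against 22.1 to 22.8. Most of that difference was Ly6a, a surface marker also found on lymphocytes, at means of 35.5 and 2.50 FPKM. The defining stem cell genes Mecom, Fgd5, Procr and Slamf1 had means under 0.5 FPKM in both groups. The part of plasma cells, other B cells or any other of these cell types in the V segment levels was not tested.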

How the data were processed

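Sorted cells gave RNA for stranded mRNA libraries, as the labels' protocols describe. For alignment and quantification the submitters' processing notes list fastp, HISAT2 and StringTie with the build GRCm38 (mm10). Versions, settings and gene annotation are not given in the notes used here. Per library there is 1 table, in FPKM as the authors computed it from aligned fragments. The headers name no unit, and FPKM was inferred from the values and the tools. FPKM is relative to each library, so the rise of abundant transcripts lowers all others. Library sums ran from 332289 to 383600, and depth, estimated from the lowest steps, was 2.05e+07 to 3.25e+07 fragments.

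Of rows sharing a symbol the one with the highest mean was kept. Genes whose mean reached 1 FPKM were tested with limma (3.58.1, R 4.3.3; trend, no covariate, two-sided, pseudocount 1, Benjamini-Hochberg at 0.05), checked on simulated data. Shares and summed levels carry no test. The members and lists were chosen with earlier results of these data known. Named were the highest segment of each family, the 6 largest and 6 smallest changes, every tested segment not called higher, the 6 highest of each group, up to 3 genes per list by p and the class II genes. Other genes named, such as Ighv5-2, Ighv6-6, Ighv7-1, Ighv8-8, Ighv8-11, Ighv10-3, Ighv14-4, Ighv1-62-2, Ighv1-71, Ighv1-72, Ighm, Igha and Rag1, were chosen after their values were seen. Some genes that the rule names are among items not reported here. Promoters and recombination signals beyond the V exons were not analysed here.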

Additional observations from a re-analysis of the deposited data

How the results depend on the processing

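The count of V segments higher in MHCII-hi followed the number tested. It ran from 87 of 87 with a minimum of 5 FPKM to 110 of 133 with no minimum, where 1 was lower and the rest were not called. With a library left out it was 99 to 105. No pairing by replicate number was visible: deviations of same-numbered libraries correlated at -0.09, -0.00 and -0.03. This cannot show whether same-numbered libraries came from the same mice, which the labels do not state. With a replicate block 101 segments were higher and 1 lower, with 2856 genes higher and 3782 lower over all. The 1 lower segment, Ighv1-41, was not called with a minimum of 5 FPKM, which left it untested, or with a fold threshold of 2, so that 0 were lower. Over all genes, 3084 were higher and 4009 lower. A minimum of 5 FPKM gave 1792 higher, a fold threshold of 2 gave 341 higher and 70 lower, and scaling without immunoglobulin genes gave 4901 higher and 2131 lower, so that 69.7% of calls were higher in place of 43.5%; leaving out libraries gave 2716 to 2922 and 3583 to 3693. The ratio of summed levels was 55.5 with functional segments only, 61.7 scaled without immunoglobulin genes and 54.2 to 54.8 with a library left out.

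With values multiplied by exon length, the effective number of segments in MHCII-hi was 49.0, and family 5 had 11.2% in MHCII-hi and 6.85% in MHCII-lo, and family 11 0.356% and 4.22%. With functional segments only that number was 48.0 and 46.9 in the 2 groups. Leaving out a library gave 48.2 to 48.3 and 47.4 to 48.4, family 1 shares of 51.8% to 52.2% and 51.5% to 52.5%, family 5 shares of 10.4% to 10.5% and 6.36% to 6.53%, and family 11 shares of 0.278% to 0.303% and 3.22% to 3.55%. Of 366 values of the 25 named segments under alternatives, 362 kept their direction and their side of the threshold. The other 4 were Ighv1-73, whose limma adjusted p was 0.0825 with no minimum, 0.102 with quantile normalization, and 0.101 and 0.088 without MHCII-lo replicate 2 or 3; the cause was not tested. The octamer and recombination signal counts were not run.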

Other observations

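The other exons of the heavy and light chains were compared in the same fit. Their counts stand beside 25.5% higher and 33.1% lower over all genes tested. As with the heavy chain V segments, one that is silent in MHCII-lo passed the minimum only through its MHCII-hi level. The counts therefore describe the tested segments only. The 4 heavy chain J segments were all higher in MHCII-hi, with a summed level of 5488 ± 111 FPKM against 77.2 ± 3.71 (SD, n = 3), a ratio of 71.1. In MHCII-hi the 4 were used at similar levels, with means of 1330 FPKM for Ighj1, 1457 for Ighj2, 1208 for Ighj3 and 1493 for Ighj4. Ighj2 had the largest ratio, 112, from 1482, 1440 and 1448 FPKM against 11.2, 18.5 and 9.38. Of the 15 D segments only 4 were tested, because these short segments were near 0. Ighd1-1, at 3.33, 4.17 and 17.9 FPKM, and Ighd4-1, at 8.85, 1.99 and 6.27, were higher in MHCII-hi. Their log2 changes were 2.91 (SE 0.52) and 2.35 (SE 0.44). The fragments behind these short segments were not estimated, so their levels are loosely known. Ighd2-3 spread from 0.21 to 45.5 FPKM within MHCII-hi and Ighd2-6 from 0 to 8.41, and neither passed the test.

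Light chain V segments showed ratios of the same order. Of 94 tested kappa V segments of 118 listed, 93 were higher in MHCII-hi and 1 was not called, beside 25.5% higher over all genes tested. Their median log2 change was 5.49 and the summed levels had a ratio of 57.1. The 5 kappa J segments were all higher, with a ratio of 57.8. The 3 lambda V segments were also higher, but their summed level rose less, 31.9-fold, from 43.3 ± 1.67 to 1379 ± 33.9 FPKM (SD, n = 3). Iglv2 had the smallest ratio of the 3, 24.3, and Iglv3 the largest, 40.6.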
